A study of Homo sapiens with 23 samples.

Results

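The 9 genes described here are targets of NRF2, the transcription factor encoded by NFE2L2: NQO1, HMOX1, GCLM, GCLC, TXNRD1, SRXN1, PGD, AKR1B10 and AKR1C1. They were matched by symbol, and each symbol matched 1 row of the 60564 genes listed in every library. Their mRNA was measured in 23 libraries of 2 established cell lines, Caco-2, a human colorectal adenocarcinoma line that stands for the gut, and HepG2, a human hepatocellular carcinoma line that stands for the liver. Both lines were kept in the integrated gut-liver-on-a-chip (iGLC), a microfluidic device in which each line was cultured alone (mono-culture) or linked to the other by circulating medium (co-culture). The cells received either free fatty acids (FFAs; palmitic and oleic acid, 1 mM in total) or none (control) for 1 day. Each line therefore had 4 groups of 3 libraries, except that Caco-2 co-culture control had 2. Each tissue is represented by a single tumour line, the labels do not say whether replicates came from separate chips, and p-values measure the spread between these libraries. The labels name no vehicle for the control cells, and they give 0.5% serum during treatment where the methods describe medium without serum.

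NRF2 is held low in unstressed cells because KEAP1, a sensor with reactive cysteines, brings it to a CUL3 and RBX1 ubiquitin ligase for degradation. When electrophiles or oxidants modify KEAP1, NRF2 escapes, pairs with a small MAF protein and binds antioxidant response elements in the DNA near its targets, where the repressor BACH1 competes with it. The targets supply NADPH and glutathione, reduce thioredoxin and peroxiredoxins, and detoxify quinones, haem and reactive carbonyls. In liver and gut these enzymes are part of the defence against drugs, food toxins and lipid peroxidation, and tumours with lasting NRF2 activity are known for high AKR1B10, AKR1C1 and NQO1.

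On GRCh38 with GENCODE annotation, all 9 are protein-coding genes. PGD (ENSG00000142657) lies on chromosome 1 from 10398592 to 10420511, GCLM (ENSG00000023909) on chromosome 1 from 93885199 to 93909456 and GCLC (ENSG00000001084) on chromosome 6 from 53497341 to 53616970. AKR1B10 (ENSG00000198074) lies on chromosome 7 from 134527567 to 134541412, AKR1C1 (ENSG00000187134) on chromosome 10 from 4963253 to 4983283 and TXNRD1 (ENSG00000198431) on chromosome 12 from 104215779 to 104350307. NQO1 (ENSG00000181019) lies on chromosome 16 from 69706996 to 69726668, SRXN1 (ENSG00000271303) on chromosome 20 from 646615 to 653200 and HMOX1 (ENSG00000100292) on chromosome 22 from 35380361 to 35394214.

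The letters TGACNNNGC form the core of the antioxidant response element, the sequence that NRF2 and its MAF partner bind, and they were looked for on both strands of RefSeq promoters (GRCh38, 250 bases before to 50 bases after a gene's start). RefSeq promoters were at hand for 7 of the 9 genes, 8 promoters in all. The core was found in 4 of these 8, against 4687 of all 35116 promoters (13.3%), and the matches belonged to GCLM, PGD and TXNRD1. No match says only that these letters are not in this window, and a match is not evidence of binding. Distances are to the RefSeq start of each promoter, which can differ from the GENCODE position given above. The PGD window lies inside the GENCODE gene, which begins at 10398592 on the plus strand. Exon and intron labels are from GENCODE and apply to the whole printed window. GCLM ends at 93909456 and TXNRD1 begins at 104215779, so 1 window of each lies only partly in its gene. The 5 matches are printed to show the element itself, with 10 bases on either side, 5′ to 3′ on the strand that carries the letters and with the core in capitals.
GCLM, 34 bases before the start, chr1:93909446-93909474, plus strand, over a GCLM exon: tggaagacaaTGACTAAGCagaaatcgta
PGD, 201 bases before the start, chr1:10398853-10398881, minus strand, in a PGD intron: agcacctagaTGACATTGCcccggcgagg
TXNRD1, 99 bases before the start of the first promoter, chr12:104215670-104215698, plus strand, over no GENCODE gene: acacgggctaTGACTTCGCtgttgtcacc
TXNRD1, 8 bases before the same start, chr12:104215761-104215789, minus strand, over a TXNRD1 exon: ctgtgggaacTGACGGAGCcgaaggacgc
TXNRD1, 102 bases before the start of the other promoter, chr12:104286920-104286948, minus strand, over a TXNRD1 exon: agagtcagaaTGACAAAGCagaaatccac

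The deposited values are TPM, which divide reads by transcript length and set each library to the same total, so levels may be compared between genes but the sequencing depth is unknown. The number of genes detected (TPM over 0) per library ran from 19259 to 23689. It was highest in replicate 3 of each group, and in replicate 2 of Caco-2 co-culture control, and some of the 9 genes moved with it, a part that was not tested beyond the alternatives given with the results. The 10 liver markers checked summed to 40325 to 61211 TPM in HepG2 libraries and 2683 to 5140 TPM in Caco-2 libraries. The 10 intestinal markers checked summed to 871 to 1168 TPM in Caco-2 and 157 to 246 TPM in HepG2 libraries, where 7 or 8 of the 10 stayed under 1 TPM in each group, against 2 to 4 in Caco-2 groups. RNA of the other line was gauged from 34 HepG2 and 63 Caco-2 marker genes, as their summed TPM in percent of the sum in their own line. This share was 0.127 to 0.613% in HepG2 libraries and 0.0883 to 0.242% in 9 Caco-2 libraries, and it was 0.825% and 2.08% in replicate 1 of Caco-2 co-culture control and of Caco-2 co-culture with FFAs.

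All 9 genes were above 0 TPM in every library. In HepG2 cells the mean level over 12 libraries fell from AKR1C1 (1780.3 TPM) and NQO1 (1664 TPM) to AKR1B10 (430.4 TPM), SRXN1 (283 TPM), TXNRD1 (216 TPM), PGD (197 TPM), GCLC (95.3 TPM), GCLM (53.5 TPM) and HMOX1 (45.6 TPM). In Caco-2 cells the order over 11 libraries was NQO1 (335 TPM), PGD (215 TPM), TXNRD1 (117 TPM), AKR1C1 (102 TPM), SRXN1 (80.9 TPM), GCLC (63.5 TPM), HMOX1 (59.9 TPM), GCLM (11.4 TPM) and AKR1B10 (4.04 TPM). In HepG2 the ranges of neighbours in this order overlapped except between NQO1 and AKR1B10 and between PGD and GCLC. In Caco-2 they overlapped except between NQO1 and PGD, between PGD and TXNRD1 and between HMOX1 and GCLM. The 9 genes together made up 899 to 1070.0 TPM of a Caco-2 library and 3171 to 5970.5 TPM of a HepG2 library.

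**Figure D1:**
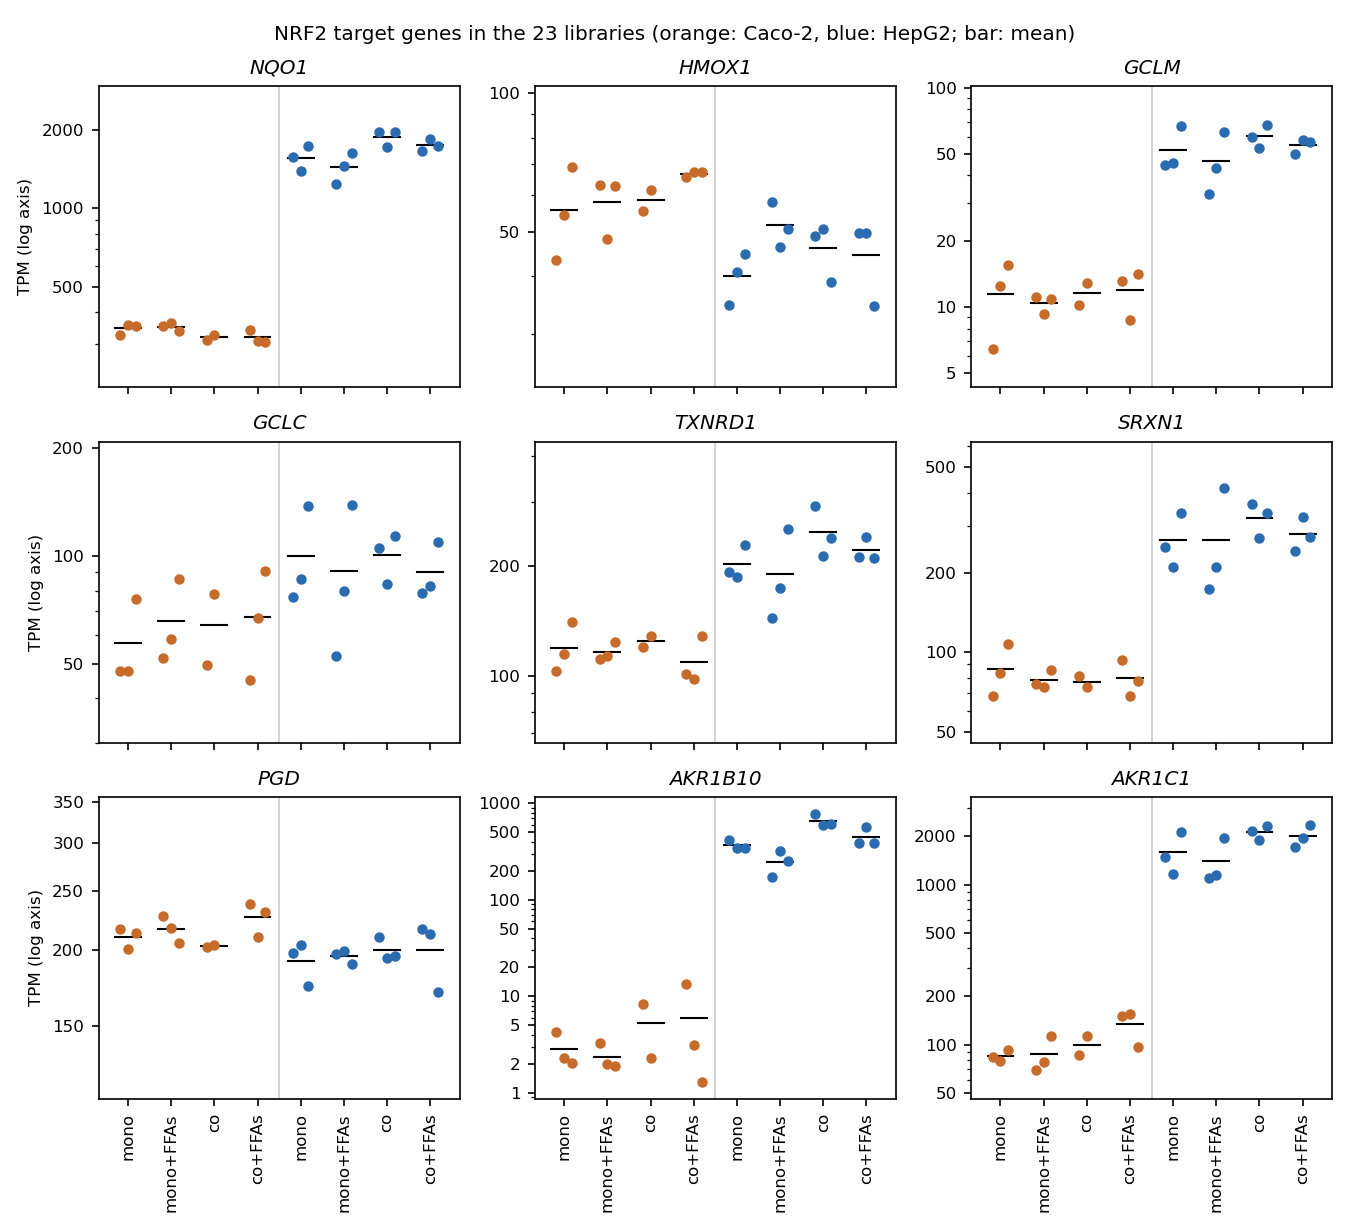
Level of each of the 9 genes in every library (TPM, log axis) by line, culture and treatment; points are libraries, bars are group means, orange is Caco-2 and blue is HepG2. AKR1B10 sits between 1.31 and 13.6 TPM in Caco-2 and between 173.9 and 769 TPM in HepG2, whereas PGD sits between 171 and 238 TPM in both lines.

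NQO1 encodes the quinone reductase that takes quinones to hydroquinones with 2 electrons at once. In Caco-2 cells NQO1 was at 326, 357 and 354 TPM in mono-culture without FFAs, 353, 362 and 337 TPM in mono-culture with FFAs, 312 and 327 TPM in co-culture without FFAs, and 342, 308 and 307 TPM in co-culture with FFAs. In HepG2 cells NQO1 was at 1579.9, 1389 and 1740.2 TPM in mono-culture without FFAs, 1238, 1460.3 and 1628 TPM in mono-culture with FFAs, 1967, 1729 and 1973 TPM in co-culture without FFAs, and 1668, 1849 and 1745 TPM in co-culture with FFAs. Every HepG2 library lay above every Caco-2 library, and within HepG2 the 3 mono-culture libraries with FFAs were all below the 3 co-culture libraries of either treatment.

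HMOX1 encodes haem oxygenase, which opens the haem ring to biliverdin, iron and carbon monoxide, and it is a gene on which BACH1 repression is strong. In Caco-2 cells HMOX1 was at 43.5, 54.3 and 69.1 TPM in mono-culture without FFAs, 63.2, 48.3 and 62.9 TPM in mono-culture with FFAs, 55.4 and 61.7 TPM in co-culture without FFAs, and 65.8, 67.5 and 67.3 TPM in co-culture with FFAs. In HepG2 cells HMOX1 was at 34.7, 40.9 and 44.8 TPM in mono-culture without FFAs, 57.9, 46.2 and 50.7 TPM in mono-culture with FFAs, 48.9, 50.7 and 39.0 TPM in co-culture without FFAs, and 49.6, 49.7 and 34.4 TPM in co-culture with FFAs. The ranges of both lines overlapped, with the highest values in Caco-2 cells.

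GCLC and GCLM encode the catalytic and the modifier subunit of glutamate-cysteine ligase, the first and rate-limiting enzyme of glutathione synthesis. In Caco-2 cells GCLC was at 47.7, 47.8 and 75.6 TPM in mono-culture without FFAs, 51.9, 58.7 and 86.4 TPM in mono-culture with FFAs, 49.7 and 78.5 TPM in co-culture without FFAs, and 45.0, 67.2 and 90.4 TPM in co-culture with FFAs. In HepG2 cells GCLC was at 76.6, 85.9 and 138 TPM in mono-culture without FFAs, 52.6, 79.8 and 139 TPM in mono-culture with FFAs, 105, 83.7 and 114 TPM in co-culture without FFAs, and 78.9, 82.3 and 109 TPM in co-culture with FFAs. The library with the most genes above 0 TPM had the highest GCLC of its group in 8 of 8 groups, and the ranges of the lines overlapped.
In Caco-2 cells GCLM was at 6.47, 12.5 and 15.6 TPM in mono-culture without FFAs, 11.1, 9.29 and 10.9 TPM in mono-culture with FFAs, 10.2 and 12.9 TPM in co-culture without FFAs, and 13.1, 8.73 and 14.2 TPM in co-culture with FFAs. In HepG2 cells GCLM was at 44.5, 45.7 and 67.0 TPM in mono-culture without FFAs, 32.7, 43.0 and 63.1 TPM in mono-culture with FFAs, 59.6, 53.4 and 68.1 TPM in co-culture without FFAs, and 50.1, 58.2 and 56.6 TPM in co-culture with FFAs. Every HepG2 library exceeded every Caco-2 library in GCLM, and within each line the 4 groups overlapped.

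TXNRD1 encodes cytosolic thioredoxin reductase, and SRXN1 encodes sulfiredoxin, which repairs overoxidised peroxiredoxins. In Caco-2 cells TXNRD1 was at 103, 115 and 141 TPM in mono-culture without FFAs, 112, 113 and 124 TPM in mono-culture with FFAs, 120.3 and 129 TPM in co-culture without FFAs, and 102, 98.5 and 129 TPM in co-culture with FFAs. In HepG2 cells TXNRD1 was at 193, 187 and 229 TPM in mono-culture without FFAs, 144, 173.9 and 253 TPM in mono-culture with FFAs, 292, 214 and 238 TPM in co-culture without FFAs, and 212, 241 and 210.4 TPM in co-culture with FFAs. The TXNRD1 ranges of the lines did not meet.
In Caco-2 cells SRXN1 was at 68.4, 83.5 and 108 TPM in mono-culture without FFAs, 76.2, 74.1 and 85.7 TPM in mono-culture with FFAs, 81.3 and 73.8 TPM in co-culture without FFAs, and 93.5, 68.2 and 78.0 TPM in co-culture with FFAs. In HepG2 cells SRXN1 was at 249, 211 and 337 TPM in mono-culture without FFAs, 173, 209.5 and 416 TPM in mono-culture with FFAs, 362, 270.4 and 335 TPM in co-culture without FFAs, and 240.4, 325 and 273 TPM in co-culture with FFAs. All HepG2 values of SRXN1 were above all Caco-2 values, and the highest of all was replicate 3 of HepG2 mono-culture with FFAs.

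PGD encodes 6-phosphogluconate dehydrogenase, which makes NADPH in the pentose phosphate pathway. In Caco-2 cells PGD was at 216, 200.4 and 213 TPM in mono-culture without FFAs, 228, 217 and 205 TPM in mono-culture with FFAs, 202 and 204 TPM in co-culture without FFAs, and 238, 210.2 and 231 TPM in co-culture with FFAs. In HepG2 cells PGD was at 198, 204 and 174.2 TPM in mono-culture without FFAs, 197, 199.5 and 189 TPM in mono-culture with FFAs, 210.0, 194 and 195 TPM in co-culture without FFAs, and 217, 212 and 171 TPM in co-culture with FFAs. PGD was the steadiest of the 9 in HepG2, with a highest value 1.27 times the lowest, and the ranges of the lines overlapped.

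AKR1B10 and AKR1C1 encode aldo-keto reductases, which reduce reactive aldehydes and ketones with NADPH, AKR1B10 acting on retinal and lipid aldehydes and AKR1C1 on steroids. In Caco-2 cells AKR1B10 was at 4.23, 2.28 and 2.06 TPM in mono-culture without FFAs, 3.26, 2.00 and 1.89 TPM in mono-culture with FFAs, 8.41 and 2.29 TPM in co-culture without FFAs, and 13.6, 3.12 and 1.31 TPM in co-culture with FFAs. In HepG2 cells AKR1B10 was at 416, 346 and 342 TPM in mono-culture without FFAs, 173.9, 317 and 255 TPM in mono-culture with FFAs, 769, 592 and 603 TPM in co-culture without FFAs, and 390.5, 574 and 388 TPM in co-culture with FFAs. In HepG2 the co-culture control libraries were the highest and the mono-culture libraries with FFAs the lowest, and neither group met the mono-culture control libraries, while the ranges of mono-culture control and co-culture with FFAs overlapped.
In Caco-2 cells AKR1C1 was at 83.6, 78.9 and 92.3 TPM in mono-culture without FFAs, 68.9, 78.1 and 113 TPM in mono-culture with FFAs, 85.8 and 114 TPM in co-culture without FFAs, and 150.3, 155 and 96.6 TPM in co-culture with FFAs. In HepG2 cells AKR1C1 was at 1488, 1168 and 2122 TPM in mono-culture without FFAs, 1102, 1146 and 1966 TPM in mono-culture with FFAs, 2156, 1895 and 2314 TPM in co-culture without FFAs, and 1719, 1943 and 2344 TPM in co-culture with FFAs. The lines were far apart, and replicate 3 of both HepG2 mono-culture groups stood with the co-culture libraries.
Close relatives could share reads with both genes, and their values are uncertain for that reason. AKR1C2 ranged from 35.8 to 117 TPM in Caco-2 and from 226 to 662 TPM in HepG2, and like GCLC it was highest in the library with the most genes above 0 TPM in 8 of 8 groups. AKR1B1 ranged from 51.5 to 83.0 TPM in Caco-2 and from 179 to 241 TPM in HepG2, and AKR1B15 stayed at or under 0.56 TPM.

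The comparison of the lines asked how far NRF2 targets differ between the liver and the gut cells at the start and over all conditions. Averaged over the 4 conditions, HepG2 was higher in 7 of the 9 genes and lower in 2, and all 9 passed the test (limma on log2(TPM + 1), adjusted p under 0.05). In the same comparison 79.0% of 16495 genes passed, 29.2% higher and 49.8% lower in HepG2, and 38.8% had a log2 fold change above 0. The median log2 fold change was 1.77 over the 9 genes and -0.24 over all genes tested. Most genes passed in this comparison, so the count of 9 of 9 is close to the background. In these bulk libraries, fewer cells expressing a gene and less RNA per cell cannot be told apart.

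AKR1B10 differed most, with log2 fold change 6.52 ± 0.24 (SE), limma, adjusted p = 2.66e-15, which is 92.0-fold. Its Caco-2 mean was 4.04 TPM, so the 1 TPM added before taking logs lowers this ratio. Without the 2 Caco-2 libraries with the most HepG2 RNA the log2 fold change was 6.90. AKR1C1 followed with log2 fold change 4.12 ± 0.13 (SE), limma, adjusted p = 1.15e-16 or 17.4-fold. NQO1 was higher in HepG2 by 4.94-fold (log2 fold change 2.30 ± 0.05 (SE), limma, adjusted p = 4.67e-19). For GCLM, the HepG2 level was 4.41-fold the Caco-2 level (log2 fold change 2.14 ± 0.13 (SE), limma, adjusted p = 1.19e-11). The other subunit GCLC differed less (log2 fold change 0.57 ± 0.17 (SE), limma, adjusted p = 0.00417). SRXN1 differed by 3.41-fold (log2 fold change 1.77 ± 0.13 (SE), limma, adjusted p = 1.15e-10). TXNRD1 differed by 1.81-fold (log2 fold change 0.86 ± 0.09 (SE), limma, adjusted p = 2.29e-08). These 7 genes kept their direction under each scaling tried.

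HMOX1 was lower in HepG2 (log2 fold change -0.39 ± 0.09 (SE), limma, adjusted p = 0.000471), but its call was lost with median-of-ratios scaling (limma, adjusted p = 0.108) and quantile normalization (limma, adjusted p = 0.0783), with limma adjusted p between 0.000124 and 0.108 over all alternatives. PGD was lower by a small amount (log2 fold change -0.12 ± 0.05 (SE), limma, adjusted p = 0.0196), and it turned to 0.11 with median-of-ratios scaling and 0.02 with quantile normalization. The PGD call was also lost without the library with the most genes in each group (limma, adjusted p = 0.163) and without the 2 Caco-2 libraries with the most HepG2 RNA (limma, adjusted p = 0.0526), and its limma adjusted p ran from 0.00859 to 0.667 over all alternatives. TPM put the median of all genes at -0.24 between the lines, median-of-ratios scaling at -0.04 and quantile normalization at 0.02, and the share of calls that were higher in HepG2 went from 36.9% to 48.0% and 50.8%. In TPM, HMOX1 (-0.39) lay below that median and PGD (-0.12) above it, and the other 7 genes lay well above it.

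**Figure D2:**
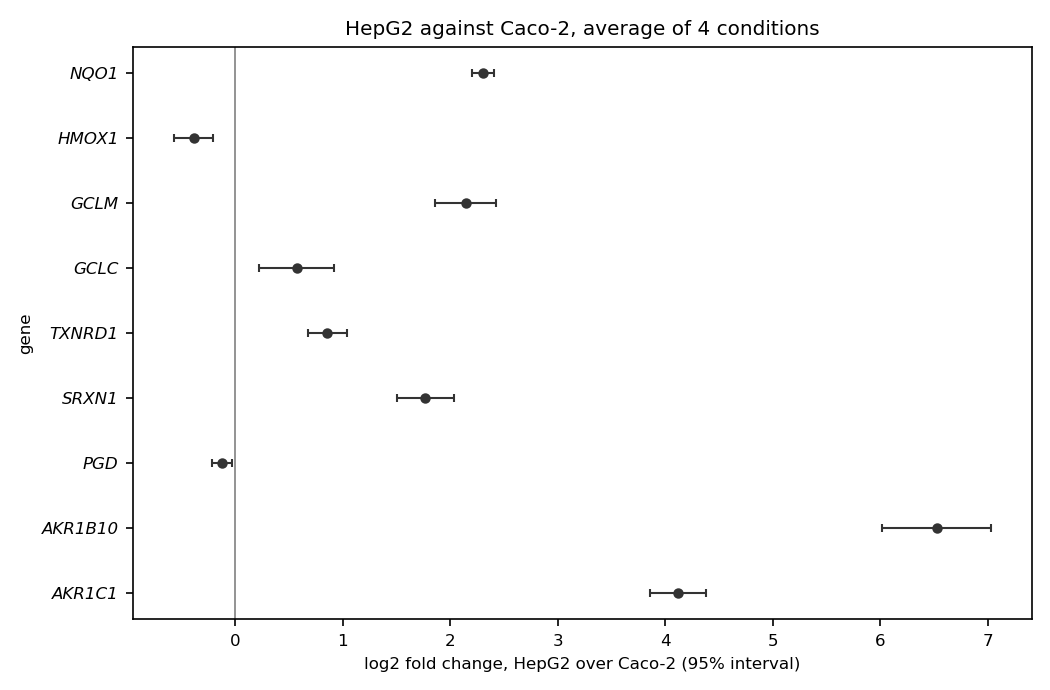
Log2 fold change of each gene between HepG2 and Caco-2, averaged over both cultures and both treatments (points, with 95% intervals from limma). AKR1B10 lies at 6.52 and AKR1C1 at 4.12, 5 genes lie between 0.57 and 2.30, and HMOX1 (-0.39) and PGD (-0.12) lie below 0, PGD turning to 0.11 with median-of-ratios scaling.

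In mono-culture without FFAs, before any contact with the other line, 7 of the 9 genes were higher in HepG2 and passed, HMOX1 was lower and passed, and PGD did not pass. Here 62.4% of the 16495 genes passed, 23.4% higher and 39.0% lower. AKR1B10 stood at 368 ± 41.5 TPM in HepG2 and 2.86 ± 1.19 TPM in Caco-2 (mean ± SD, n = 3 each). AKR1B10 had the largest difference (log2 fold change 6.62 ± 0.47 (SE), limma, adjusted p = 3.07e-10). AKR1C1 followed (log2 fold change 4.17 ± 0.24 (SE), limma, adjusted p = 1.61e-11). NQO1 came next (log2 fold change 2.18 ± 0.10 (SE), limma, adjusted p = 2.34e-13). GCLM differed about as much as NQO1 (log2 fold change 2.14 ± 0.26 (SE), limma, adjusted p = 6.43e-07). SRXN1 was higher by less (log2 fold change 1.60 ± 0.25 (SE), limma, adjusted p = 1.36e-05). TXNRD1 had the smallest of these 6 differences (log2 fold change 0.77 ± 0.17 (SE), limma, adjusted p = 0.000609). GCLC passed narrowly (log2 fold change 0.79 ± 0.32 (SE), limma, adjusted p = 0.0416), and its call was lost without replicate 1 or 2 of Caco-2 mono-culture control (limma, adjusted p = 0.124 each) and without replicate 2 (adjusted p = 0.0509) or 3 (adjusted p = 0.196) of HepG2 mono-culture control, and with no filter on low values (adjusted p = 0.0944). HMOX1 also passed narrowly (log2 fold change -0.44 ± 0.17 (SE), limma, adjusted p = 0.0287), with overlapping groups, and its call was lost without replicate 2 (limma, adjusted p = 0.0568) or 3 (adjusted p = 0.179) of Caco-2 mono-culture control, without replicate 1 of HepG2 mono-culture control (adjusted p = 0.123) and with either other scaling. The HMOX1 call was also lost with no filter (limma, adjusted p = 0.0568), with only the compared groups in the fit (adjusted p = 0.0601) and without the library with the most genes in each group (adjusted p = 0.0789). Over all alternatives the limma adjusted p ran from 0.000455 to 0.196 for GCLC and from 0.00623 to 0.225 for HMOX1.

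The genes that govern NRF2 were also compared between the lines. Of 10 regulators, 3 were higher and 3 lower in HepG2 averaged over the conditions (background 29.2% and 49.8%), with a median log2 fold change of -0.15. NFE2L2, which encodes NRF2 itself, was at 114 to 294 TPM in HepG2 and 98.4 to 179 TPM in Caco-2 (log2 fold change 0.48 ± 0.12 (SE), limma, adjusted p = 0.00164). NFE2L1, a relative of NRF2, was lower in HepG2 (log2 fold change -0.88 ± 0.06 (SE), limma, adjusted p = 4.58e-11). RBX1 was lower too (log2 fold change -0.54 ± 0.06 (SE), limma, adjusted p = 1.84e-07), and so was the repressor BACH1 (log2 fold change -0.66 ± 0.13 (SE), limma, adjusted p = 0.000129). MAFG, a small MAF partner, was higher (log2 fold change 0.65 ± 0.12 (SE), limma, adjusted p = 3.87e-05). In mono-culture without FFAs, 1 regulator was higher (MAFG) and 2 lower (NFE2L1 and RBX1), where 23.4% and 39.0% of all genes were.

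Of 23 other genes known as NRF2 targets, 14 were higher and 8 lower in HepG2 (background 29.2% and 49.8%), with a median log2 fold change of 0.48. GPX2, the gastrointestinal glutathione peroxidase, was at 1048 to 1502 TPM in HepG2 against 18.4 to 88.9 TPM in Caco-2 (log2 fold change 5.41 ± 0.19 (SE), limma, adjusted p = 9.39e-16). AKR1C3, a neighbour of AKR1C1, was higher too (log2 fold change 2.99 ± 0.14 (SE), limma, adjusted p = 8.60e-14). FTL, the ferritin light chain, was also higher (log2 fold change 1.49 ± 0.05 (SE), limma, adjusted p = 2.26e-16). The opposite held for ME1, the cytosolic malic enzyme, at 0.01 to 0.61 TPM in HepG2 and 81.8 to 131 TPM in Caco-2. ME1 lay below the filter on low values in HepG2 and passed it through Caco-2 alone. Its test value is therefore not given, though it is counted among the 8 lower. BLVRB, a biliverdin reductase, was also lower in HepG2 (log2 fold change -2.13 ± 0.06 (SE), limma, adjusted p = 2.81e-17). In mono-culture without FFAs, 12 of the 23 were higher and 6 lower (background 23.4% and 39.0%).

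Co-culture with Caco-2 cells went with higher levels of most of these genes in HepG2 cells. None passed the adjusted threshold in the fit without a replicate block, and AKR1B10 and AKR1C1 passed in the fit with it. Averaged over both treatments, 8 of the 9 had a log2 fold change above 0, against 45.6% of 14255 genes, and their median was 0.26 against -0.02 for all genes tested. In limma without the block 0 of 9 passed the adjusted threshold and 3 had an unadjusted p under 0.05 (AKR1B10, AKR1C1 and NQO1), where 0.0561% and 12.5% of all genes did so. AKR1B10 was 1.80-fold higher (log2 fold change 0.85 ± 0.15 (SE), limma, unadjusted p = 0.000125, adjusted p = 0.0716), with a 95% interval of 0.52 to 1.18 on the log2 scale. AKR1C1 was 1.42-fold higher (log2 fold change 0.50 ± 0.17 (SE), limma, unadjusted p = 0.0130, adjusted p = 0.275) and NQO1 1.21-fold higher (log2 fold change 0.28 ± 0.08 (SE), limma, unadjusted p = 0.00608, adjusted p = 0.212). HMOX1 was the lowest of the 9 (log2 fold change -0.01 ± 0.12 (SE), limma, unadjusted p = 0.923, adjusted p = 0.978), and its sign turned to 0.02 with median-of-ratios scaling.

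Within each treatment, AKR1B10 separated the cultures without overlap, a description given without the share of all genes that did so. Without FFAs it was at 655 ± 98.9 TPM in co-culture and 368 ± 41.5 TPM in mono-culture (mean ± SD, n = 3 each), with log2 fold change 0.82 ± 0.21 (SE), limma, unadjusted p = 0.00242, adjusted p = 0.574. With FFAs it was at 451 ± 106 TPM against 248 ± 71.5 TPM (mean ± SD, n = 3 each), with log2 fold change 0.87 ± 0.21 (SE), limma, unadjusted p = 0.00160, adjusted p = 0.821. NQO1 overlapped between cultures without FFAs (log2 fold change 0.27 ± 0.12 (SE), limma, unadjusted p = 0.0422, adjusted p = 0.647) and not with FFAs (log2 fold change 0.29 ± 0.12 (SE), limma, unadjusted p = 0.0314, adjusted p = 0.863). AKR1C1 with FFAs had log2 fold change 0.55 ± 0.24 (SE), limma, unadjusted p = 0.0427, adjusted p = 0.876, its mono-culture replicate 3 (1966 TPM) lying within the co-culture range.

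Without FFAs 9 of the 9 genes had a log2 fold change above 0 for co-culture, against 45.9% of all genes, and GCLC had the smallest (log2 fold change 0.05 ± 0.31 (SE), limma, unadjusted p = 0.885, adjusted p = 0.988). In that comparison limma called 0 of 9 and 0% of all genes, and 2 of 9 had an unadjusted p under 0.05 (background 7.53%). With FFAs 8 of the 9 were above 0 (background 47.5%), 0 of 9 and 0% of all genes were called, and 3 of 9 had an unadjusted p under 0.05 (background 5.63%). HMOX1 was the exception there (log2 fold change -0.22 ± 0.17 (SE), limma, unadjusted p = 0.218, adjusted p = 0.956). The 2 comparisons share no library, but both use the 1 estimate of spread from the HepG2 fit. Deviations of same-numbered libraries also correlated between treatments within a culture (r = 0.0201 to 0.568, over 0.1 in 5 of 6 pairs). The 2 comparisons are therefore not taken as independent.

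The call on HepG2 co-culture depended on how the spread between replicates was handled. The labels do not say what a replicate number shares, so the pairing behind the block is not established. With the replicate number as a block, limma called AKR1B10 (adjusted p = 0.0205) and AKR1C1 (adjusted p = 0.0261), 2 of the 9 genes, and 492 of all 14255 genes (3.45%) in place of 8. NQO1 had adjusted p = 0.0582 with the block (limma). With a term for the library with the most genes above 0 TPM in each group, chosen after seeing the data, limma called the same genes, AKR1B10 (adjusted p = 0.0169) and AKR1C1 (adjusted p = 0.0223). In HepG2 these libraries were replicate 3 of every group, so the term is contained in the block and is not a separate check. Without those libraries it called 0 of 9, and 6 of 9 had an unadjusted p under 0.05. Over all alternatives the adjusted p ran from 0.0169 to 0.229 for AKR1B10 and from 0.0223 to 0.518 for AKR1C1, with log2 fold changes of 0.73 to 0.95 and 0.40 to 0.66. The share of Caco-2 RNA in co-cultured HepG2 libraries was at most 0.613%, and with that share subtracted AKR1B10 remained at 0.85 on the log2 scale.

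**Figure D3:**
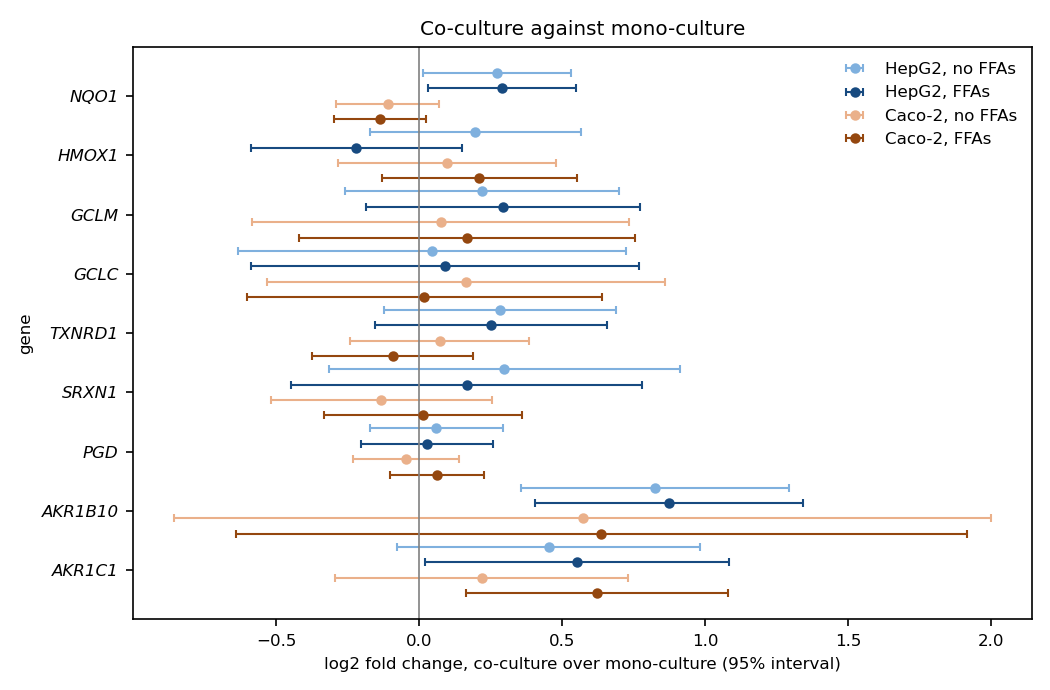
Log2 fold change of each gene between co-culture and mono-culture, for HepG2 (blue) and Caco-2 (orange), without FFAs (light) and with FFAs (dark); bars are 95% intervals from limma. The HepG2 points of AKR1B10 lie at 0.82 and 0.87, and the wide Caco-2 intervals of AKR1B10 span 0.

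Other NRF2 targets and regulators in HepG2 were read in the same comparison, where 45.6% of all genes were above 0, 0.0561% passed the adjusted threshold in limma and 12.5% had an unadjusted p under 0.05. Of the 22 other targets tested, 19 were above 0 for co-culture averaged over treatments, 0 passed and 7 had an unadjusted p under 0.05, each of them higher. FTL had the smallest p (log2 fold change 0.29 ± 0.08 (SE), limma, unadjusted p = 0.00357, adjusted p = 0.186). The next was TALDO1, a pentose phosphate enzyme (log2 fold change 0.26 ± 0.08 (SE), limma, unadjusted p = 0.00522, adjusted p = 0.199). GSR, glutathione reductase, came after it (log2 fold change 0.31 ± 0.09 (SE), limma, unadjusted p = 0.00676, adjusted p = 0.222). Of the 10 regulators 9 were above 0, 0 passed and 2 had an unadjusted p under 0.05, MAFG (log2 fold change 0.46 ± 0.16 (SE), limma, unadjusted p = 0.0159, adjusted p = 0.286) and NFE2L2 (log2 fold change 0.51 ± 0.18 (SE), limma, unadjusted p = 0.0166, adjusted p = 0.288). NFE2L2 was at 166, 212 and 125 TPM in mono-culture control and at 210.2, 246 and 254 TPM in co-culture control, and with FFAs at 114, 195 and 143 TPM against 153, 294 and 198 TPM. The NFE2L2 ranges of the cultures overlapped under both treatments. Without FFAs, FTL (log2 fold change 0.35 ± 0.11 (SE), limma, unadjusted p = 0.0107, adjusted p = 0.603) had the smallest p. TALDO1 (log2 fold change 0.30 ± 0.11 (SE), limma, unadjusted p = 0.0172, adjusted p = 0.631) and GSR (log2 fold change 0.33 ± 0.13 (SE), limma, unadjusted p = 0.0287, adjusted p = 0.646) followed. With FFAs, the smallest p was that of ABCC3, an efflux pump (log2 fold change 0.51 ± 0.17 (SE), limma, unadjusted p = 0.0126, adjusted p = 0.823). AKR1C3 (log2 fold change 0.38 ± 0.14 (SE), limma, unadjusted p = 0.0202, adjusted p = 0.848) and AKR1C2 (log2 fold change 0.78 ± 0.33 (SE), limma, unadjusted p = 0.0368, adjusted p = 0.869) followed.

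In Caco-2 cells no gene of the 9 passed the adjusted threshold for co-culture. Averaged over treatments limma called 0 of 9 and 0% of 15081 genes, and 2 of 9 had an unadjusted p under 0.05 (background 10.5%), AKR1C1 higher (log2 fold change 0.42 ± 0.16 (SE), limma, unadjusted p = 0.0212, adjusted p = 0.404) and NQO1 lower (log2 fold change -0.12 ± 0.05 (SE), limma, unadjusted p = 0.0447, adjusted p = 0.459). The fold change furthest from 0 was that of AKR1B10 (log2 fold change 0.60 ± 0.44 (SE), limma, unadjusted p = 0.193, adjusted p = 0.651). AKR1B10 in co-cultured Caco-2 cells was highest in the 2 libraries with the most HepG2 RNA, 8.41 TPM beside a share of 0.825% and 13.6 TPM beside 2.08%, while the other 3 co-cultured libraries had 1.31 to 3.12 TPM and shares of 0.0883 to 0.242%. Without these 2 libraries, an alternative chosen after seeing the data, its log2 fold change was -0.15, and with the HepG2 share subtracted it was 0.31. Without the library with the most genes in each group it was 1.15. For AKR1C1 the values were 0.47 without the 2 libraries, 0.56 without the library with the most genes in each group, and 0.32 with the HepG2 share subtracted (limma, unadjusted p = 0.0689). Leaving out either set of libraries left 1 library of co-culture control. Its limma adjusted p ran from 0.202 to 0.776 over all alternatives, and how far HepG2 RNA adds to its value was not tested.

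Without FFAs, limma called 0 of 9 genes in co-cultured Caco-2 cells (background 0.0199%) and 0 of 9 had an unadjusted p under 0.05 (background 5.43%). The fold changes ran from SRXN1 (log2 fold change -0.13 ± 0.18 (SE), limma, unadjusted p = 0.468, adjusted p = 0.920), which turned to 0.04 without replicate 3 of mono-culture control, to AKR1B10 (log2 fold change 0.57 ± 0.65 (SE), limma, unadjusted p = 0.398, adjusted p = 0.905). With FFAs, limma called 0 of 9 (background 0%) and 1 of 9 had an unadjusted p under 0.05 (background 6.09%). That was AKR1C1 (log2 fold change 0.62 ± 0.21 (SE), limma, unadjusted p = 0.0125, adjusted p = 0.791), at 150.3, 155 and 96.6 TPM in co-culture against 68.9, 78.1 and 113 TPM in mono-culture, where 1 library of each group overlapped. NQO1 was the lowest (log2 fold change -0.14 ± 0.07 (SE), limma, unadjusted p = 0.0874, adjusted p = 0.869) and AKR1B10 the highest (log2 fold change 0.64 ± 0.58 (SE), limma, unadjusted p = 0.297, adjusted p = 0.929), the latter turning to -0.11 without the library that held 2.08% HepG2 RNA.

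**Figure D4:**
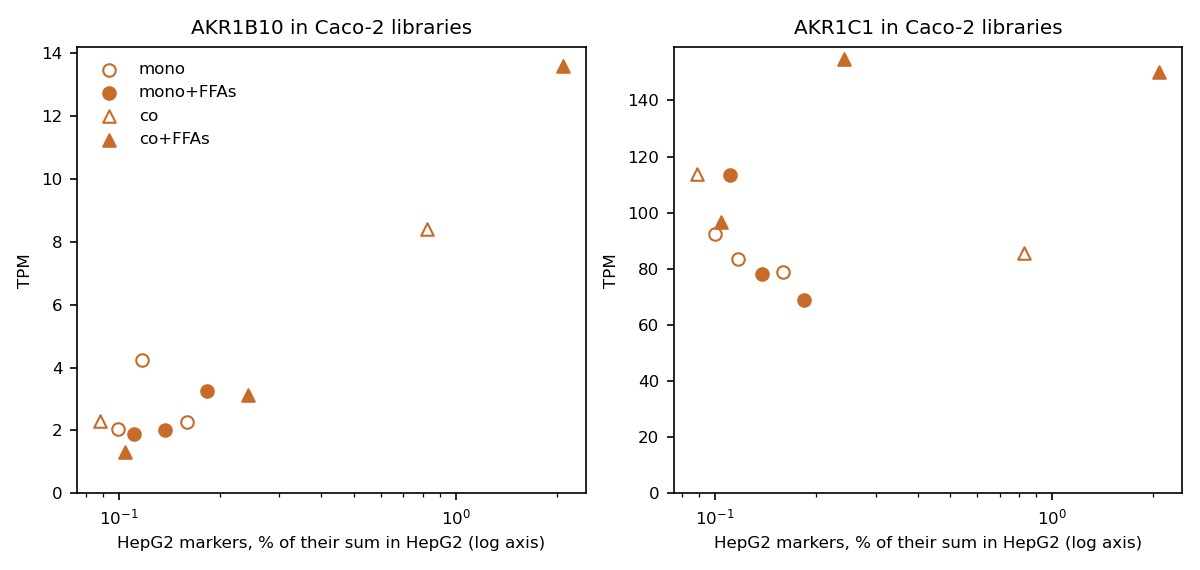
AKR1B10 and AKR1C1 (TPM) in the 11 Caco-2 libraries against the summed TPM of 34 HepG2 marker genes, given as a percentage of their sum in HepG2 cells (log axis); circles are mono-culture, triangles co-culture, filled symbols FFAs. The libraries at 0.825% and 2.08% hold the highest AKR1B10 values, whereas the highest AKR1C1 value (155 TPM) lies at 0.242%.

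ME1, TKT and EPHX1 were the other NRF2 targets with the smallest p in co-cultured Caco-2 cells, of 23 tested with 0 called and 4 at an unadjusted p under 0.05 (background 10.5%), 2 higher and 2 lower. ME1 was lower in co-culture (log2 fold change -0.33 ± 0.07 (SE), limma, unadjusted p = 0.000527, adjusted p = 0.249), at 81.8 and 87.9 TPM without FFAs and 95.3, 91.5 and 106 TPM with FFAs, against 106 to 131 TPM in mono-culture. The pentose phosphate enzyme TKT had log2 fold change -0.16 ± 0.06 (SE), limma, unadjusted p = 0.0247, adjusted p = 0.417 and the epoxide hydrolase EPHX1 had log2 fold change 0.28 ± 0.09 (SE), limma, unadjusted p = 0.00866, adjusted p = 0.343. The values for ME1 were log2 fold change -0.37 ± 0.10 (SE), limma, unadjusted p = 0.00349, adjusted p = 0.867 without FFAs and log2 fold change -0.28 ± 0.09 (SE), limma, unadjusted p = 0.0104, adjusted p = 0.786 with FFAs. With FFAs TKT (log2 fold change -0.21 ± 0.08 (SE), limma, unadjusted p = 0.0236, adjusted p = 0.814) and EPHX1 (log2 fold change 0.28 ± 0.12 (SE), limma, unadjusted p = 0.0357, adjusted p = 0.814) also had an unadjusted p under 0.05. Of the 10 regulators none had an unadjusted p under 0.05 in any Caco-2 comparison, and limma called 0.

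Whether the lines differed in their co-culture effect was tested directly in one fit of all 8 groups. Limma called 0 of 9 (background 0.533%) and 1 of 9 had an unadjusted p under 0.05 (background 14.6%). That gene was NQO1, which was higher by 0.28 in co-cultured HepG2 and lower by 0.12 in co-cultured Caco-2, a difference of 0.40 ± 0.10 (SE; limma, unadjusted p = 0.000674, adjusted p = 0.0763). Over all alternatives the difference for NQO1 ran from 0.35 to 0.48 and its adjusted p from 0.00713 to 0.143, and it passed under 5 of them. These were the replicate block (limma, adjusted p = 0.0435), array weights (adjusted p = 0.00713), the term for the library with the most genes above 0 TPM (adjusted p = 0.0339), and leaving out replicate 3 of HepG2 mono-culture control (adjusted p = 0.0335) or of HepG2 mono-culture with FFAs (adjusted p = 0.0444). The block and the term overlap, since the term marks replicate 3 of every group except Caco-2 co-culture control. HMOX1 had the lowest difference (log2 fold change -0.16 ± 0.17 (SE), limma, unadjusted p = 0.358, adjusted p = 0.707). Among the other targets 5 of 23 were higher and 1 lower at an unadjusted p under 0.05, and 0 were called. The 5 include ME1, which at 0.01 to 0.61 TPM lay below the filter in HepG2 and passed it through Caco-2 alone, so its value is not given as a difference between the lines. TKT (log2 fold change 0.35 ± 0.10 (SE), limma, unadjusted p = 0.00333, adjusted p = 0.117) and TALDO1 (log2 fold change 0.36 ± 0.11 (SE), limma, unadjusted p = 0.00366, adjusted p = 0.120) had the smallest p of the others.

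The comparison of FFAs with control asked whether a day of fatty acids moved these genes. In HepG2 cells limma called 0 of the 9 genes and 0% of all genes, in mono-culture, in co-culture and averaged over both. In mono-culture 2 of 9 had a log2 fold change above 0 (background 50.7%) and in co-culture 0 of 9 (background 52.4%), with medians of -0.13 in each. AKR1B10 was the 1 gene of 9 with an unadjusted p under 0.05 in each culture (background 2.24% in mono-culture and 1.84% in co-culture). In mono-culture it was at 416, 346 and 342 TPM without FFAs and 173.9, 317 and 255 TPM with FFAs, with no overlap (log2 fold change -0.60 ± 0.21 (SE), limma, unadjusted p = 0.0161, adjusted p = 1). In co-culture it was at 769, 592 and 603 TPM without FFAs and 390.5, 574 and 388 TPM with FFAs, again with no overlap (log2 fold change -0.55 ± 0.21 (SE), limma, unadjusted p = 0.0246, adjusted p = 1). The share of all genes without overlap was not determined, so nothing is concluded from either separation. Averaged over the cultures AKR1B10 had log2 fold change -0.58 ± 0.15 (SE), limma, unadjusted p = 0.00259, adjusted p = 0.9999 (background 3.49% at an unadjusted p under 0.05), and its log2 fold change stayed between -0.67 and -0.46 over all alternatives, with limma adjusted p from 0.526 to 1.

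HMOX1 had the highest fold change with FFAs in HepG2 mono-culture (log2 fold change 0.36 ± 0.17 (SE), limma, unadjusted p = 0.0570, adjusted p = 1), where 57.9, 46.2 and 50.7 TPM with FFAs lay above 34.7, 40.9 and 44.8 TPM without. Here too the share of all genes that separated was not determined. In co-culture its groups overlapped, and PGD had the highest fold change of the 9 (log2 fold change -0.0047 ± 0.11 (SE), limma, unadjusted p = 0.965, adjusted p = 1), a value at 0 whose sign turned under several alternatives. Averaged over cultures HMOX1 was again highest (log2 fold change 0.15 ± 0.12 (SE), limma, unadjusted p = 0.238, adjusted p = 0.9999). The difference between the FFAs effects of co-culture and mono-culture was called for 0 of 9 and 0% of all genes, and 0 of 9 had an unadjusted p under 0.05 (background 1.16%). HMOX1 had the lowest (log2 fold change -0.42 ± 0.24 (SE), limma, unadjusted p = 0.108, adjusted p = 1) and AKR1C1 the highest (log2 fold change 0.10 ± 0.34 (SE), limma, unadjusted p = 0.777, adjusted p = 1).

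In Caco-2 cells none of the 9 genes passed a test for FFAs. In mono-culture limma called 0 of 9 (background 0%) and 0 of 9 had an unadjusted p under 0.05 (background 2.61%), with fold changes from AKR1B10 (log2 fold change -0.17 ± 0.58 (SE), limma, unadjusted p = 0.777, adjusted p = 1) to GCLC (log2 fold change 0.20 ± 0.28 (SE), limma, unadjusted p = 0.495, adjusted p = 1). In co-culture the counts were 0 of 9 called (background 0.0199%) and 0 of 9 at an unadjusted p under 0.05 (background 2.83%), from TXNRD1 (log2 fold change -0.19 ± 0.14 (SE), limma, unadjusted p = 0.20, adjusted p = 1) to AKR1C1 (log2 fold change 0.40 ± 0.23 (SE), limma, unadjusted p = 0.112, adjusted p = 1). HMOX1 and PGD did not overlap there, HMOX1 at 55.4 and 61.7 TPM without FFAs and 65.8, 67.5 and 67.3 TPM with FFAs. The control had only 2 libraries, the share of all genes without overlap was not determined, and nothing is concluded from it. The log2 fold change of AKR1C1 in that comparison was 0.10 without the 2 libraries richest in HepG2 RNA and 0.82 without the library with the most genes in each group. Each of these alternatives left 1 co-culture control library.
Averaged over the cultures, limma called 0 of 9 Caco-2 genes (background 0%) and 0 of 9 had an unadjusted p under 0.05 (background 3.99%), from AKR1B10 (log2 fold change -0.14 ± 0.44 (SE), limma, unadjusted p = 0.760, adjusted p = 0.994) to AKR1C1 (log2 fold change 0.20 ± 0.16 (SE), limma, unadjusted p = 0.223, adjusted p = 0.990). The FFAs effect of co-culture minus that of mono-culture was called for 0 of 9 (background 0%), with 0 of 9 at an unadjusted p under 0.05 (background 1.94%), from TXNRD1 (log2 fold change -0.16 ± 0.19 (SE), limma, unadjusted p = 0.408, adjusted p = 0.9999) to AKR1C1 (log2 fold change 0.40 ± 0.31 (SE), limma, unadjusted p = 0.226, adjusted p = 0.9999). Without the 2 libraries richest in HepG2 RNA these AKR1C1 values were 0.05 averaged and 0.10 for the difference, and without the library with the most genes in each group they were 0.34 and 0.97. The FFAs effects of the lines were also compared directly, and limma called 0 of 9 (background 0.0182%) and found 0 of 9 at an unadjusted p under 0.05 (background 2.99%). AKR1B10 had the lowest difference (log2 fold change -0.44 ± 0.48 (SE), limma, unadjusted p = 0.374, adjusted p = 1) and HMOX1 the highest (log2 fold change 0.01 ± 0.17 (SE), limma, unadjusted p = 0.933, adjusted p = 1). The 95% interval of the AKR1B10 difference, -1.45 to 0.57, holds effects of either sign.

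**Figure D5:**
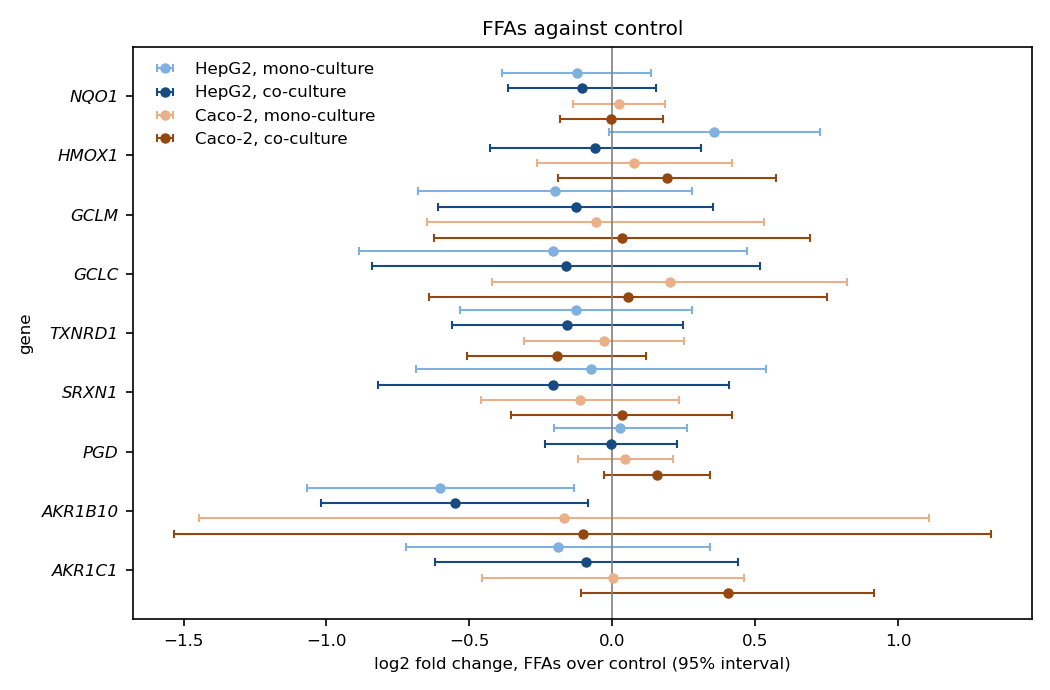
Log2 fold change of each gene between FFAs and control, for HepG2 (blue) and Caco-2 (orange), in mono-culture (light) and co-culture (dark); bars are 95% intervals from limma. AKR1B10 in HepG2 lies at -0.60 and -0.55 with intervals below 0, and the intervals of the other points cross 0.

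Among the regulators, SQSTM1, the autophagy receptor that binds KEAP1, was lower with FFAs in HepG2 co-culture (log2 fold change -0.46 ± 0.14 (SE), limma, unadjusted p = 0.00696, adjusted p = 1), at 551, 659 and 698 TPM against 810.1, 871 and 932 TPM in control, without overlap. That separation is a description given without the share of all genes that did so. Averaged over the cultures SQSTM1 had log2 fold change -0.36 ± 0.10 (SE), limma, unadjusted p = 0.00383, adjusted p = 0.9999, and the difference from Caco-2 was log2 fold change -0.32 ± 0.15 (SE), limma, unadjusted p = 0.0448, adjusted p = 1. It was the 1 regulator of 10 at an unadjusted p under 0.05 in these comparisons, and limma called 0. Among all genes, such a p was found for 1.84% in HepG2 co-culture, 2.24% in HepG2 mono-culture and 3.49% averaged over the cultures. For the difference between the lines the share was 2.99%. Of the other targets, ABCC3 (log2 fold change -0.49 ± 0.17 (SE), limma, unadjusted p = 0.0152, adjusted p = 1) and BLVRB (log2 fold change -0.28 ± 0.13 (SE), limma, unadjusted p = 0.0499, adjusted p = 1) had values below 0 in HepG2 mono-culture. Averaged over the cultures BLVRB had log2 fold change -0.25 ± 0.09 (SE), limma, unadjusted p = 0.0182, adjusted p = 0.9999. ABCC3 had log2 fold change -0.29 ± 0.12 (SE), limma, unadjusted p = 0.0372, adjusted p = 0.9999. For the difference between the lines the same genes had log2 fold change -0.29 ± 0.12 (SE), limma, unadjusted p = 0.0256, adjusted p = 1 and log2 fold change -0.52 ± 0.22 (SE), limma, unadjusted p = 0.0312, adjusted p = 1. Limma called 0 of the 22 other targets tested in HepG2 and 0 of 23 in Caco-2, where none had an unadjusted p under 0.05.

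The criteria of the study's methods, a one-way analysis of variance over the 4 groups of a line with an unadjusted p under 0.05 and a 1.2-fold difference between any pair of groups, were met by 0 of the 9 genes in Caco-2 cells, against 3.08% of 31100 genes. In HepG2 cells 2 of 9 met them, NQO1 and AKR1B10, against 3.56% of 29942 genes. Both shares count every gene above 0 TPM in at least 1 library, with no filter on low values. They are therefore not on the same base as the limma shares, which cover genes that averaged 1 TPM or more in any group. AKR1B10 had a largest difference of 1.43 on the log2 scale, between co-culture control and mono-culture with FFAs, and NQO1 one of 0.40 between the same groups. With adjusted p-values 0 of 9 met them in HepG2. Leaving out 1 HepG2 library at a time gave 1 to 4 genes, 4 of them without replicate 3 of mono-culture with FFAs.

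Across the 12 HepG2 libraries, several of the 9 genes varied together. Pearson's r of log2(TPM + 1) was above 0.5 in 19 of the 36 pairs, with a median of 0.59 and a range of -0.50 to 0.93. The closest pair was TXNRD1 and SRXN1 (r = 0.93), followed by GCLM and SRXN1 (r = 0.92) and NQO1 and AKR1C1 (r = 0.91). Across the 11 Caco-2 libraries 7 of 36 pairs were above 0.5, with a median of 0.13 and a range of -0.71 to 0.73. The libraries share their group and, within a group, the number of genes above 0 TPM, and these values are given as a description. The same count was not made over pairs of all genes, so it is not known whether these counts are particular to the 9.

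Likeness was ranked among genes averaging 10 TPM or more in a line. In HepG2, with 8545 such genes, the patterns most like GCLM over the 12 libraries were those of 3 amino acid transporter genes, SLC7A5, SLC3A2 and SLC1A5 (r = 0.94 to 0.95). For TXNRD1 they were SRXN1, NQO1 and MTHFD1L (r = 0.89 to 0.93), and for SRXN1 they were TBC1D16, TXNRD1 and ZNF746 (r = 0.93 to 0.96). NQO1 was most like PYCR1, TSPAN4 and MTHFD1L (r = 0.93 to 0.96). AKR1C1 was most like CRY1, HSPA9 and its near-identical relative AKR1C2 (r = 0.95 each). AKR1B10 was most like LSM10, EIF2S2 and DCBLD1 (r = 0.92 to 0.93), none of them an aldo-keto reductase. For GCLC the 3 were ASB13, SPATA20 and NR2F1 (r = 0.91 each), for PGD they were MFN2, UBTF and NLE1 (r = 0.90 each), and for HMOX1 they were DDX20, NCOA5 and SPATA2 (r = 0.87 to 0.91).

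In Caco-2, over 11 libraries and 9176 genes, the patterns most like AKR1B10 were those of A2M, GPX2 and TF (r = 0.91 to 0.92). GPX2 was at 43.1 and 88.9 TPM in the 2 co-cultured libraries with the most HepG2 RNA and at 18.4 to 37.4 TPM in the other 9. AKR1C1 was most like FAHD2B, SMPD1 and FGA (r = 0.91 to 0.94). NQO1 was most like ESRRA, MRM3 and CGAS (r = 0.90 to 0.93), HMOX1 like HSDL2, UBE2A and VPS37A (r = 0.93 to 0.96), and GCLM like VAPB, PSMD11 and PTS (r = 0.90 to 0.95). GCLC was most like RND3, HGD and UBE2B (r = 0.964 to 0.965) and TXNRD1 like ADGRF4, VAPA and WDR45B (r = 0.92 to 0.93). SRXN1 was most like SLC25A4, SLC36A4 and PIGH (r = 0.92 to 0.94), and PGD like CCT7, ACTL6A and EEF1AKMT1 (r = 0.83 to 0.88). No gene of the 9 was among those most like another in Caco-2, whereas TXNRD1, SRXN1 and NQO1 were linked in this way in HepG2.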

How the data were processed

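RNA-seq of Caco-2 (11 libraries) and HepG2 (12 libraries) was analysed from the files the authors deposited, 1 table of TPM per library. According to the methods and the submitters' processing notes, the authors discarded rRNA, tRNA and mitochondrial reads with Bowtie2 2.1.0, aligned to GRCh38 with STAR 2.7.1a and Ensembl release 98, and estimated TPM with RSEM 1.3.0, libraries having been made with a polyA SMART-Seq kit. Removal of mitochondrial reads leaves the 37 mitochondrial genes at 0, and TPM holds no read depth, so no counting interval is given. Groups come from the submitters' labels.

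Tests used limma 3.58.1 (R 4.3.3) on log2(TPM + 1), with a trended variance prior and Benjamini-Hochberg adjustment over all genes that averaged 1 TPM or more in any group. Each line was fitted with its 4 groups, and line differences with all 8 groups. Fold changes on this scale understate those of low genes. The fits were tested on simulated data. The submitters' titles number the replicates without saying what a number shares. Deviations of same-numbered HepG2 libraries from their group means correlated in each of the 6 pairs of co-culture and mono-culture within a treatment (r = 0.129 to 0.661). A fit with the replicate number as a block is therefore given beside that comparison. These correlations do not show that the numbers pair libraries, since some differently numbered libraries correlated more. Replicate 1 of HepG2 co-culture control had r = 0.242 with replicate 2 of mono-culture control and 0.129 with replicate 1. Over all HepG2 groups r was over 0.1 in 16 of 18 pairs (lowest 0.0201), and in Caco-2 in 9 of 15 (lowest -0.138). The one-way analysis of variance followed the methods' criteria. Where groups are said not to overlap, this describes 2 or 3 libraries each. The share of all genes without overlap was not determined.

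The 9 genes and the lists of 10 regulators and 23 other targets were chosen with earlier results of these data known. A member's fold change was printed where it passed the adjusted threshold or an unadjusted p under 0.05, or was the highest or lowest of the 9. Listed genes were printed up to 5 by adjusted p and up to 3 more by unadjusted p, and the 3 genes most like each member by Pearson's r. The settings varied were the pseudocount (0.1), the scaling (median-of-ratios or quantile), no filter or a mean of 5 TPM, no variance trend, array weights, other samples in the fit, a replicate block, subtraction of the other line's RNA and leaving out each library. Leaving out, or adding a term for, the libraries with the most genes detected, and leaving out the 2 Caco-2 libraries with the most HepG2 RNA, were chosen after seeing the data. Positions are from GENCODE release 44 and promoters from RefSeq (GRCh38.p14).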

Additional observations from a re-analysis of the deposited data

How the results depend on the processing

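Of 494 counts of genes called under alternatives, 475 stayed within 1.5 times the reported count. Most reported counts were 0, and a 0 that stayed 0 is among these 475, so this agreement says little about robustness. Of 1518 fold changes of single genes, 1454 kept their direction and their side of the threshold, 38 changed sign, 17 lost a call and 9 gained one. For HepG2 co-culture averaged over treatments, 2 genes passed in limma with the replicate block and 2 with the term for the library with the most genes above 0, and 492 and 439 of all genes in place of 8. In HepG2 that term marks replicate 3 of every group, so it is contained in the block. For the line difference in the co-culture effect 1 gene, NQO1, passed with the replicate block (limma, adjusted p = 0.0435, range over alternatives 0.00713 to 0.143), 1 with array weights, 1 with that term, and 0 to 1 when each library was left out. The analysis of variance gave 0 genes in HepG2 with adjusted p-values, 1 to 4 genes in HepG2 and 0 to 1 in Caco-2 when each library was left out. The block changed no other call of the 9 genes, and in Caco-2 co-culture averaged over treatments it called 60 of all genes in place of 0. Signs turned as follows. AKR1B10 in Caco-2 went to -0.19 without FFAs, -0.11 with FFAs and -0.15 averaged for co-culture without the 2 libraries with the most HepG2 RNA, and to 0.0018 for FFAs averaged under the replicate block. Without the libraries with the most genes, SRXN1 for Caco-2 co-culture without FFAs went to 0.10, PGD for FFAs in HepG2 co-culture to 0.089 and HMOX1 for HepG2 co-culture averaged to 0.17, the last going to 0.015 with median-of-ratios scaling. PGD between the lines went to 0.11 with median-of-ratios scaling and 0.021 with quantile normalization. Leaving out each library gave, in Caco-2, -0.013 to 0.42 for GCLC and -0.35 to 0.072 for AKR1B10 with FFAs in mono-culture, -0.29 to 0.035 for SRXN1 and -0.19 to 1.33 for AKR1B10 for co-culture without FFAs, -0.11 to 1.22 for AKR1B10 for co-culture with FFAs, and -0.52 to 0.24 for AKR1B10 for FFAs averaged. In HepG2 it gave -0.067 to 0.10 for PGD with FFAs in co-culture, -0.12 to 0.30 for GCLC for co-culture without FFAs, -0.061 to 0.074 for HMOX1 for co-culture averaged, and -0.13 to 0.37 for AKR1C1 for the FFAs effect of co-culture minus mono-culture. The line difference in the FFAs effect of HMOX1 ran from -0.068 to 0.10. None of these sign changes concerned a called value except PGD between the lines, and their cause was not tested. TPM holds no depth, so the precision rests on the 2 or 3 libraries of each group.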
